A study of Mus musculus with 6 samples.

Results

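Bhlhe40, Bhlhe41 and Ciart encode DEC1, DEC2 and CHRONO, repressors of the circadian clock that act on the same E-box genes as the cryptochromes without being cryptochromes. The genes were chosen by name: every probe set listed with the single gene symbol Bhlhe40, Bhlhe41 or Ciart was taken. They are 3 of the 18193 genes that had a probe set of their own, and 4 of the 45037 probe sets measured. Bhlhe40 and Ciart had 1 probe set each and Bhlhe41 had 2. Expression was measured in 3 samples of mouse bone marrow cells lacking both Cry1 and Cry2 (DKO 1 to DKO 3) and in 3 samples of wild type cells (WT 1 to WT 3). All were of strain C57BL/6 per the labels and had been cultured with interleukin-7 and fetal bovine serum, a medium that sustains early B lymphocytes. The labels do not state age, sex, how the Cry alleles were made or the time of collection. They also leave unsaid whether arrays of 1 genotype came from separate animals, so p-values here cover the spread among these arrays, part or all of which may be technical.

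In the mammalian clock, CLOCK and BMAL1 bind E-boxes, short DNA elements with the core CACGTG, and activate the Period, Cryptochrome, REV-ERB and DEC genes, whose products feed back on them. DEC1 and DEC2 are basic helix-loop-helix proteins of the Hairy and Enhancer-of-split kind that bind E-boxes themselves and repress from there, while CHRONO binds BMAL1 and lowers its activity. Bhlhe40 and Bhlhe41 are also immune regulators in the mouse: DEC1 shapes cytokine production by T helper cells, and DEC2 is needed for B-1a cells. A gene that the cryptochromes hold down through E-boxes could be read here in their absence, which is the question put to these 3 genes.

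The promoter windows of Bhlhe41 and Ciart are shown because they hold the element through which CLOCK and BMAL1 act. Of the 3 genes, 2 were matched to a RefSeq window on build GRCm38.p6, each running from 250 bases before to 50 after the annotated start of the gene on the minus strand. The window of Bhlhe41 lies at chr6:145865371-145865670 and that of Ciart at chr3:95882179-95882478. Capitals mark each CACGTG, a motif that reads the same on both strands.
Bhlhe41: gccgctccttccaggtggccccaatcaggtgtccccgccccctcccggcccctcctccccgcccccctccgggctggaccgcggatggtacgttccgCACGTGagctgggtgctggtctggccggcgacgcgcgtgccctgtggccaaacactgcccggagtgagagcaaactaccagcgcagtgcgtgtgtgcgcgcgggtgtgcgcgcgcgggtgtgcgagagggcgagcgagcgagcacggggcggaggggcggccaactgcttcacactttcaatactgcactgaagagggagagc
Ciart: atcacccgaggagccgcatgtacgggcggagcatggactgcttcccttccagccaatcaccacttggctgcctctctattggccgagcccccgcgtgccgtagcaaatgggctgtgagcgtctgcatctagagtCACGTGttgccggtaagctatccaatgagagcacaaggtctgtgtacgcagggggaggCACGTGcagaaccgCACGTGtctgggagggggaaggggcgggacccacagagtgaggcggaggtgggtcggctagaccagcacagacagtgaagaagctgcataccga
The Ciart window held 3 copies of CACGTG, with first bases 116, 58 and 44 bases before the start. The Bhlhe41 window held 1 copy, 153 bases before the start. Among all 32851 windows of this length, 7.15% held at least 1 copy and 0.0883% held 3 or more. The related motif CACGTT, searched on both strands, was found in neither gene's window and in 4.68% of all windows. The D-box TTATGTAA, on which the PAR-domain factors DBP, TEF and HLF act, was in neither gene's window and in 0.938% of all. None of these motifs overlapped another in the 2 windows. A match is a match of letters and was not tested for binding.

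The wild type array WT 2 stood apart from the other 5 before any gene was considered. For the Actb controls, 3' signal over 5' signal came to 824 on WT 2, far from the 1.47 to 2.05 seen elsewhere. Its median signal was 115, against 44.0 to 55.3 on the others, and its highest correlation with any other array across probe sets was 0.848, where the other 5 correlated with each other at 0.956 to 0.982. The value without WT 2 is therefore given for the 3 genes, and for any other named gene of the lists whose difference moves by over 1.5 times without it. DKO 3 and WT 3 were each other's closest array, with the highest of these correlations, 0.982. The Cry1 probe set read 359 to 545 in DKO and 955 to 1533 in WT, and the Cry2 probe set 133 to 178 in DKO and 102 to 145 in WT. Whether these probe sets lie in the deleted parts was not analysed here, so they do not test the labels. With 6 arrays in all, precision is limited throughout, and no detection calls were used.

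Bhlhe40 had the largest difference of the 3 genes, carried by 2 of the 3 knockout arrays. Its probe set read 943, 994 and 142 in DKO 1 to 3, against 179, 24.2 and 67.3 in WT 1 to 3. DKO 1 and DKO 2 were above every WT array, while DKO 3 lay below WT 1, so the groups overlapped. On DKO 1 and DKO 2 this signal stood at percentiles 84.0 and 84.4 of all probe sets, on DKO 3 at percentile 65.5. It stood at percentile 66.2 on WT 1, 18.4 on WT 2 and 56.1 on WT 3. On WT 2 the Bhlhe40 signal was 0.21 times the array median, the lowest standing of any array.

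After taking log2(intensity + 16) and subtracting each array's median, Bhlhe40 averaged 3.00 ± 1.39 in DKO and 0.06 ± 1.62 in WT (SD, n = 3 each). DKO minus WT came to 2.94 log2 units (SE 0.96, 95% interval 0.68 to 5.20), a fold of 7.66 on that scale. It did not pass the threshold of 0.05: the unadjusted p of limma was 0.0178 and the adjusted p over all 27022 tested probe sets was 0.822. By that rule 0.0074% of all tested probe sets were called, 2 in number and none of them from these genes. Only 27 tested probe sets had a larger log2 difference than Bhlhe40, and 226 had a smaller p. An unadjusted p under 0.05 was found with higher signal in DKO for 1.81% of all tested probe sets and with lower signal for 1.31%. Of the 3 genes, Bhlhe40 and Ciart met the first of these conditions and none the second. Ciart met it only under some settings: its unadjusted p was 0.222 with quantile normalization, 0.274 with no centring and 0.232 with centring over the tested probe sets. Bhlhe40 did not meet it under every setting either. Its unadjusted p in limma was 0.0569 without DKO 1 and 0.0586 without DKO 2. With no centring and WT 2 left out it was 0.0503.

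The size of the Bhlhe40 difference depended on which arrays entered the fit. Without WT 2 it was 2.05 (SE 0.77, 95% interval 0.24 to 3.87), a fold of 4.15, with a limma adjusted p of 0.948. That fit called 0.0259% of all tested probe sets and none of these genes. The Bhlhe40 difference was 2.56 without DKO 1, 2.51 without DKO 2 and 3.74 without DKO 3. It was 3.64 without WT 1, 3.12 without WT 3 and 2.30 with a pseudocount of 64. Another fit weighted arrays by their estimated precision. The weights were 1.79, 4.39 and 0.54 for DKO 1 to 3 and 3.13, 0.06 and 1.22 for WT 1 to 3. DKO 3, whose Bhlhe40 signal lay below WT 1, thus counted least of the knockout arrays. In that fit the Bhlhe40 difference was 2.49 with a limma adjusted p of 0.0347, and 922 of 27022 tested probe sets were called.

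**Figure D1:**
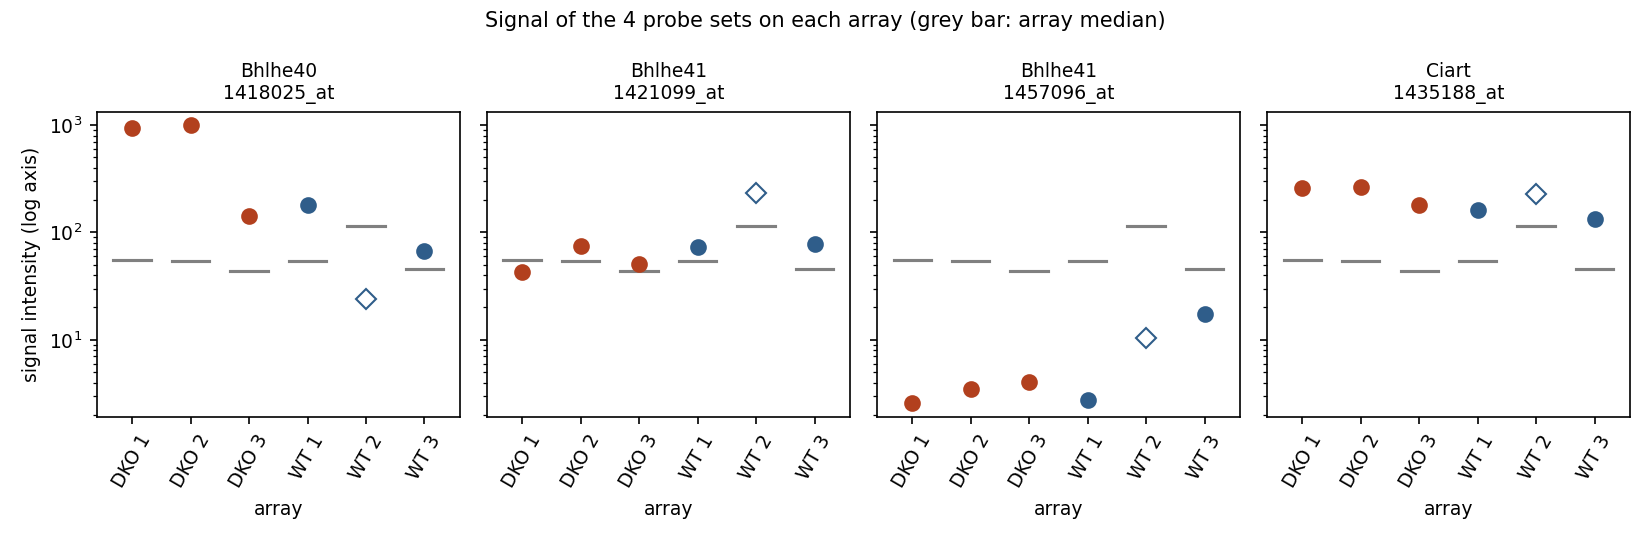
Signal intensity (log axis) of the 4 probe sets of Bhlhe40, Bhlhe41 and Ciart on each array, DKO in red and WT in blue, with WT 2 as an open diamond and the median of each array as a grey bar. Bhlhe40 read 943 on DKO 1, 994 on DKO 2 and 142 on DKO 3, next to 179 on WT 1.

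Ciart had a smaller and tighter difference in the same direction. Its probe set read 258, 268 and 182 in DKO 1 to 3, against 161, 227 and 135 in WT 1 to 3. As deposited, WT 2 lay above DKO 3, and relative to the array medians every DKO array lay above every WT array. The ratio to the array median was 4.66, 4.97 and 4.13 in DKO 1 to 3, against 2.98, 1.97 and 2.92 in WT 1 to 3. On that scale 6.97% of all tested probe sets had every DKO array above every WT array, and Ciart was the 1 of the 3 genes that did, a count too small to read against that share. Ciart averaged 1.89 ± 0.16 in DKO and 1.17 ± 0.24 in WT (SD, n = 3 each). Its log2 difference of 0.72 (SE 0.31) had a 95% interval of 0.0022 to 1.45 and equals a fold of 1.65. Its unadjusted p was 0.0495 and its limma adjusted p 0.822. Without WT 2 it was 0.59 (SE 0.25), with a 95% interval of -0.0016 to 1.17 and a limma adjusted p of 0.948.

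Bhlhe41 had a difference of the opposite sign, with a signal near the middle of each array. The brighter of its probe sets read 42.9, 74.9 and 50.9 in DKO 1 to 3, against 73.2, 232 and 78.7 in WT 1 to 3. These values lay between percentiles 45.0 and 55.6 of all probe sets in DKO and between 54.9 and 68.5 in WT. The groups overlapped on the centred scale, with DKO 2 above WT 1. Bhlhe41 averaged 0.09 ± 0.33 in DKO and 0.62 ± 0.29 in WT (SD, n = 3 each). Its log2 difference of -0.54 (SE 0.31) had a 95% interval of -1.26 to 0.19, and the limma adjusted p was 0.822. Without WT 2 it was -0.39 (SE 0.30), with a 95% interval of -1.11 to 0.33 and with a limma adjusted p of 0.948. These intervals hold both no difference and a lower signal of about the size that Ciart showed in the other direction.

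The second Bhlhe41 probe set gave no usable level. It read 2.58, 3.46 and 4.07 in DKO 1 to 3, against 2.73, 10.5 and 17.4 in WT 1 to 3, far below the array medians on all 6 arrays. It failed the filter on low values, so 3 of the 4 probe sets were tested. Its log2 difference was -0.09, with a 95% interval of -0.96 to 0.79 in a fit without the filter.

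The 3 differences were also set against the shift of all tested probe sets, since WT 2 moved the centring. The median log2 difference over all tested probe sets was 0.21 with array medians subtracted, -0.10 with the values as deposited and -0.02 with quantile normalization. Relative to that median, Bhlhe40 differed by 2.72, 2.72 and 2.76 in these 3 settings, Ciart by 0.51, 0.51 and 0.45, and Bhlhe41 by -0.75, -0.75 and -0.73. Without WT 2 the median was -0.02, and the relative values were 2.07 for Bhlhe40, 0.61 for Ciart and -0.37 for Bhlhe41. The relative values with array medians subtracted and as deposited are equal by construction, since centring shifts every probe set of an array alike. The direction of each gene was the same with quantile normalization and without WT 2.

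**Figure D2:**
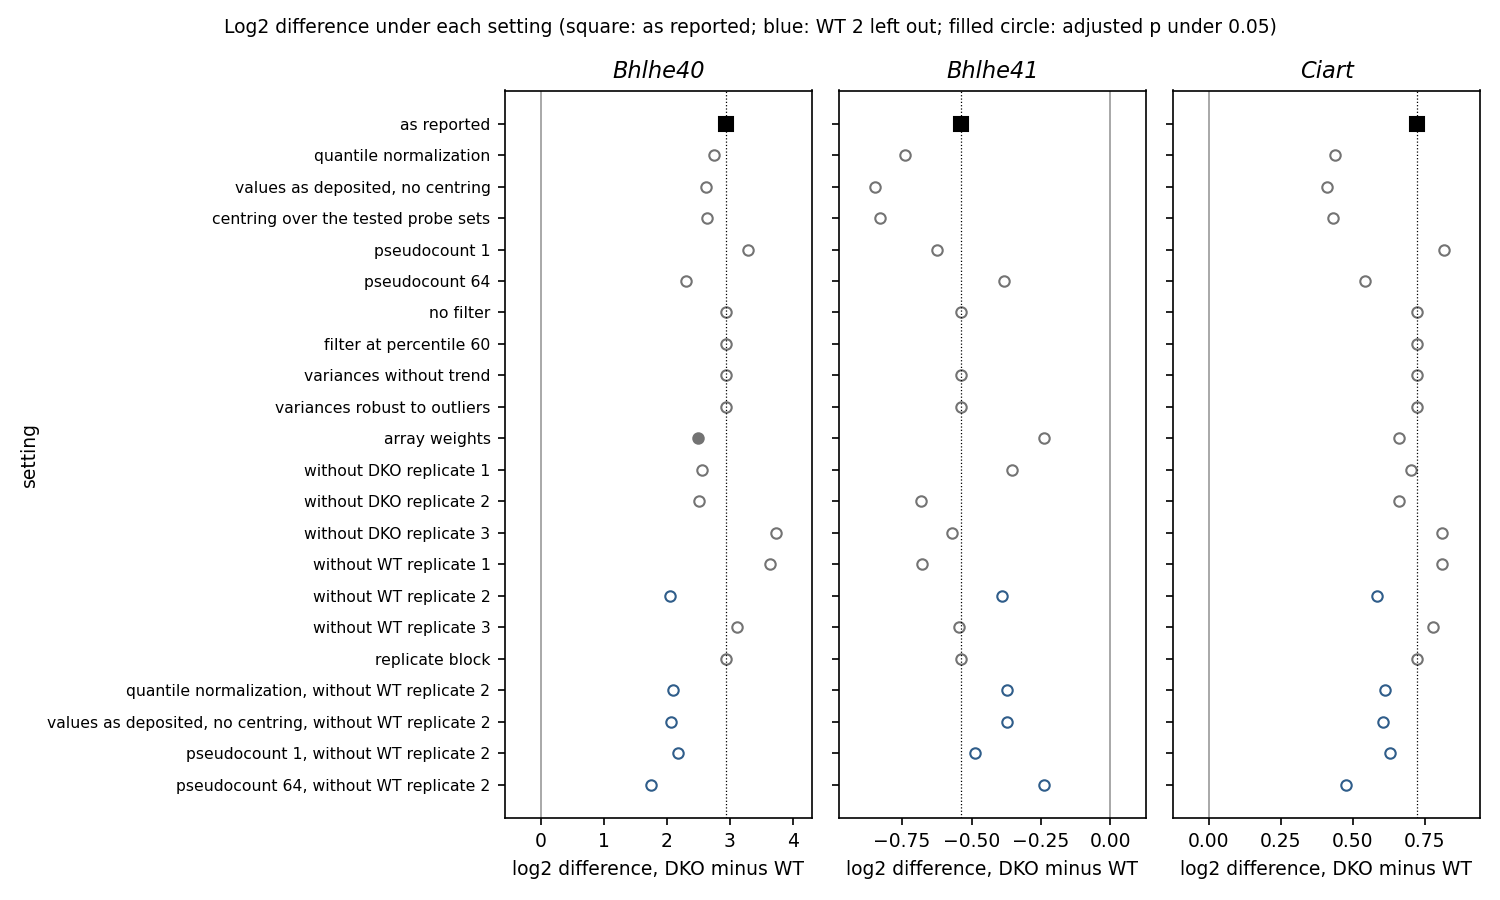
Log2 difference of Bhlhe40, Bhlhe41 and Ciart, DKO minus WT (x axis, log2 units), under each processing setting (y axis), with the reported value as a square, settings without WT 2 in blue and an adjusted p under 0.05 as a filled circle. Bhlhe40 ran from 1.75 to 3.74, Ciart from 0.41 to 0.82 and Bhlhe41 from -0.85 to -0.24, and 1 circle is filled, that of Bhlhe40 with array weights. Bhlhe41 has no point for the filter at percentile 60.

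Whether the 3 genes moved unequally was asked within each array, where the scaling of the array cancels. The log2 signal of Bhlhe40 minus that of Bhlhe41 was 4.02, 3.47 and 1.24 in DKO 1 to 3, against 1.13, -2.63 and -0.18 in WT 1 to 3. All DKO arrays were above all WT arrays, and DKO 3 and WT 1 were nearly level. The difference between genotypes was 3.47, with an exact permutation p of 0.10, two-sided, and 0.15 adjusted over the 3 pairs of genes. That difference was 3.92 with a pseudocount of 1 and 2.68 with a pseudocount of 64. An exact test of 3 arrays against 3 cannot go below 0.10. Bhlhe41 minus Ciart averaged -1.81 ± 0.36 in DKO and -0.55 ± 0.52 in WT (SD, n = 3 each), a difference of -1.26 with an exact permutation p of 0.10, adjusted 0.15. Bhlhe40 minus Ciart averaged 1.11 ± 1.24 in DKO and -1.11 ± 1.38 in WT (SD, n = 3 each), a difference of 2.21 with an exact permutation p of 0.20, adjusted 0.20. Without WT 2 the 3 differences between genotypes were 2.44, -0.98 and 1.47, in the same order of pairs. These are differences of differences, and the levels of different probe sets were not set against each other.

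The other E-box clock genes give the setting for these values. Of 13 listed and tested, 11 averaged higher in DKO and 2 averaged lower, and the median of their log2 differences was 1.21, beside 0.21 for all tested probe sets. Among all tested probe sets 64.9% had a higher mean in DKO. None passed an adjusted p of 0.05 in limma. At an unadjusted p under 0.05 there were 6 higher and 1 lower, where the shares of all tested probe sets were 1.81% and 1.31%. The 1 lower was Cry1, and the 13 include both genes lacking in DKO, Cry1 and Cry2. Without WT 2, 9 were higher and 4 lower, with a median of 0.35 against -0.02 for all tested probe sets, of which 47.4% were higher, and 0 passed. The Bhlhe40 difference of 2.94 was in the range of the REV-ERB repressor genes Nr1d1 (2.91) and Nr1d2 (3.08) and of the Period gene Per2 (2.89). The Ciart difference of 0.72 was nearest to that of Cry2 (0.70) with all 6 arrays, but without WT 2 they were 0.59 and 0.29. Bhlhe41 at -0.54 lay between Hlf (-0.21) and Cry1 (-1.26). The others were Per3 (2.32), the PAR-domain factors Tef (2.25) and Dbp (1.21), Per1 (1.27), Nampt (0.39), the cell cycle kinase gene Wee1 (0.38) and Usp2 (0.062). Without WT 2, Nampt was at -0.52, Wee1 at -0.27, Per1 at 0.35 and Hlf at -0.057. Each gene is given by its brightest probe set, and other tested probe sets of a gene could differ from it: Per2 had another at 0.54, Per3 had others at 0.40 to 0.88, Dbp at 2.40, Tef at -0.37 and 1.42, and Usp2 at 0.94.

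**Figure D3:**
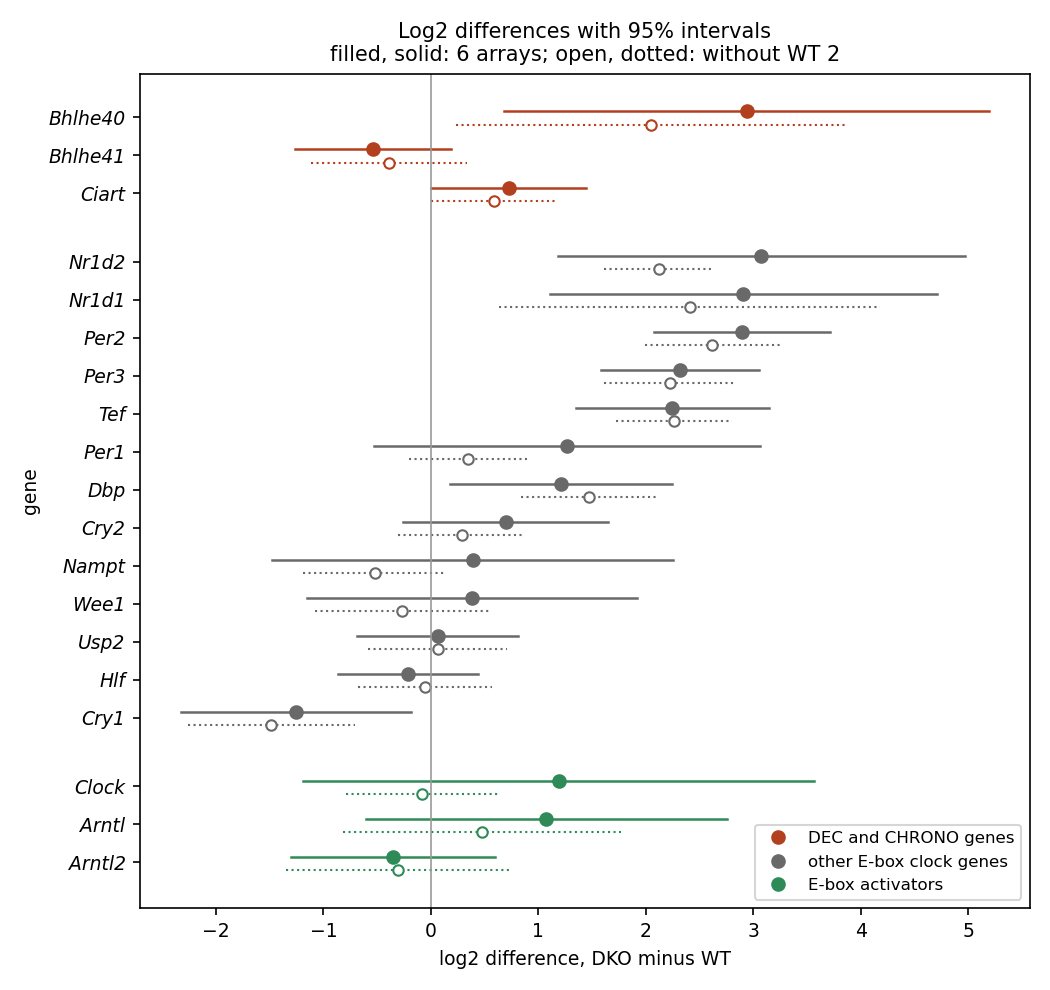
Log2 differences, DKO minus WT (x axis), with limma 95% intervals for Bhlhe40, Bhlhe41 and Ciart (red), the other tested E-box clock genes (dark grey) and the E-box activators (green), with all 6 arrays as filled points and without WT 2 as open points. The Bhlhe40 interval of 0.68 to 5.20 is wide, that of Ciart begins at 0.0022 and that of Bhlhe41 includes it.

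Bhlhe40 differed from Per2 and Per3 on array DKO 3 and in its spread among WT arrays, described here by array and without a test. The SD of the centred log2 signal in WT was 1.62 for Bhlhe40, 0.47 for Per2 and 0.28 for Per3 (n = 3 each). Per2 read 390, 334 and 402 in DKO 1 to 3, against 51.2, 54.5 and 42.4 in WT 1 to 3. Per3 read 485, 503 and 396 in DKO 1 to 3, against 75.3, 148 and 94.1 in WT 1 to 3. In both of these Period genes DKO 3 stood with DKO 1 and DKO 2. Per1 read 624, 522 and 511 in DKO 1 to 3, against 473, 113 and 380 in WT 1 to 3. Nr1d1 read 681, 431 and 96.7 in DKO 1 to 3, against 92.0, 26.7 and 18.4 in WT 1 to 3, so that its DKO 3 signal came close to that of WT 1, as in Bhlhe40. On the centred scale DKO 3 was the lowest knockout array in 6 of the 13 genes and below the highest WT array in 4. Those 4 were Cry1, Hlf, Usp2 and Nampt, none of them among the 6. DKO 1 and DKO 2 were above every WT array in 8 of the 13, and so was DKO 3 in all 8. None of the 13 thus had the full Bhlhe40 pattern on that scale. On the intensities as deposited the first 2 counts were 9 and 6. WT 2 was the lowest of all 6 arrays in 8 of the 13 on the centred scale, as it was for Bhlhe40 and Ciart.

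**Figure D4:**
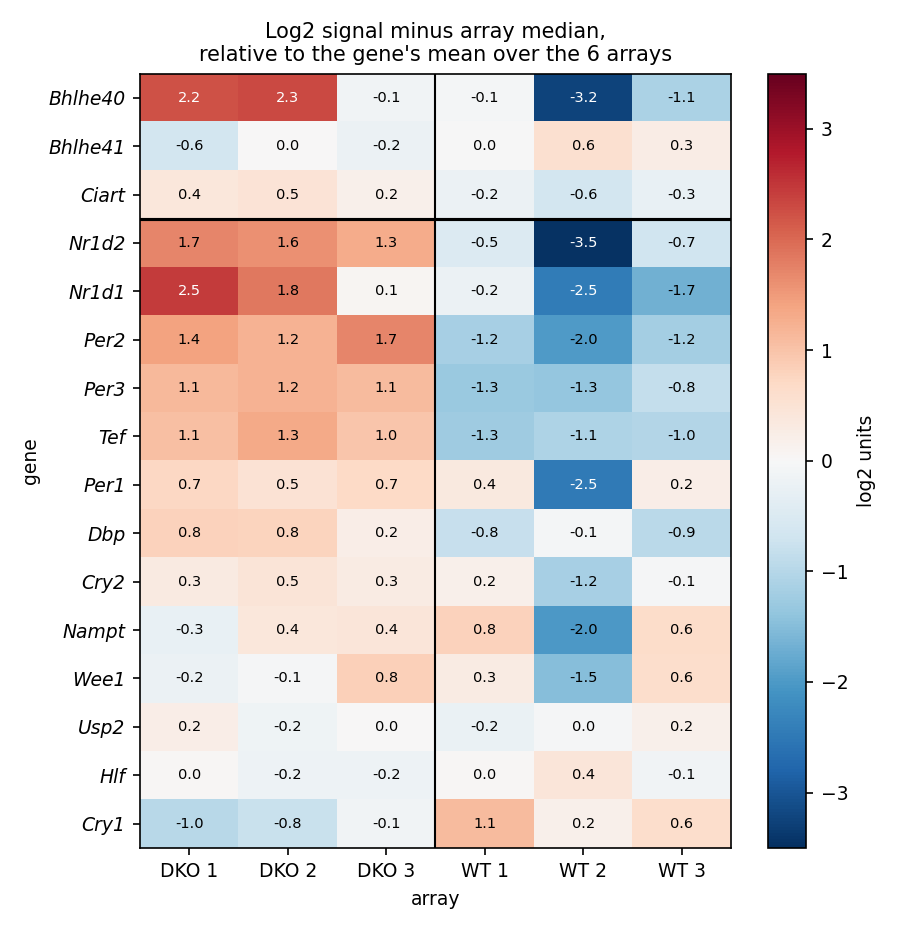
Log2 signal minus the array median, given relative to each gene's mean over the 6 arrays, for the 3 genes (above the line) and 13 other E-box clock genes (rows) on each array (columns), with red above and blue below the gene's mean. Bhlhe40 and Nr1d1 are high on DKO 1 and DKO 2 and near 0 on DKO 3 and WT 1, while Per2, Per3 and Tef are high on all DKO arrays.

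Promoter windows were matched for 11 of the 13 other E-box clock genes. CACGTG was present in a window of 3 of them, Per1, Cry1 and Tef, with 1 copy per window, and 0 had 2 copies in 1 window. The Ciart window shown above thus held more copies than any of these. Its log2 difference of 0.72 stood between those of Tef (2.25) and Per1 (1.27) above it and that of Cry1 (-1.26) below it. Cry1 is itself a gene lacking in DKO. Without WT 2, Ciart was at 0.59, Tef at 2.26, Per1 at 0.35 and Cry1 at -1.48.

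The activators that these repressors oppose showed no call in limma. Of the 3 tested, 2 had a higher and 1 a lower mean signal in DKO. Arntl, which encodes BMAL1, read 8184, 6895 and 1897 in DKO 1 to 3, against 4416, 1917 and 2569 in WT 1 to 3. As deposited, its DKO 1 and DKO 2 signals were the highest of the 6 and DKO 3 the lowest, while relative to the array medians WT 2 was the lowest. The log2 difference was 1.08 (SE 0.72), and 0.48 without WT 2. Clock differed by 1.19 with all 6 arrays and by -0.083 without WT 2, and Arntl2, a paralogue of Arntl, by -0.35. Other tested probe sets lay nearer to 0, those of Clock at -0.097 to 0.22 and that of Arntl at 0.021. Npas2, a paralogue of Clock, was below the array median on all 6 arrays and was not tested.

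Relatives and partners of the 3 proteins were described by lists. Of the HES and HEY genes, the nearest relatives of DEC1 and DEC2, 4 of 9 with a probe set passed the filter, with 3 higher and 1 lower in DKO and 0 called. Heyl differed by 0.94 and Hes5 by 1.01 (1.62 without WT 2). Heyl read 548, 469 and 96.3 in DKO 1 to 3, against 145, 322 and 138 in WT 1 to 3. Of 18 other factors that bind E-boxes, among them the Myc, USF and MITF families, 14 were higher and 4 lower, with a median of 0.43 and 0 called. Mycn, a Myc family gene of early B cells, differed by 1.67 and Mlxip, a glucose-responsive factor, by 1.27 (0.70 without WT 2). Other tested probe sets were at 1.64 and 1.44 for Heyl, 1.04 for Hes5 and 0.97 and 0.31 for Mycn. Without WT 2, 11 of the 18 were higher and 7 lower, with a median of 0.21.

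Repressor partners, the deacetylases and receptors with which clock repressors work, had 5 higher and 1 lower of 6 tested, with a median of 0.47 and 0 called, and 2 higher and 4 lower without WT 2. Hdac1, a histone deacetylase, differed by 0.76 (0.13 without WT 2), and Nr3c1, the glucocorticoid receptor, by 0.59 (0.20 without WT 2). Hypoxia response genes were included because Bhlhe40 is a known target of hypoxia-inducible factors. Of 15 tested, 12 were higher and 3 lower in DKO, with a median of 0.30 beside 0.21 for all tested probe sets, and 0 called. Without WT 2, 12 were higher and 3 lower, with a median of 0.22. For all tested probe sets that median was -0.02, and 47.4% were higher. P4ha1, a collagen prolyl hydroxylase, differed by 1.93 (0.80 without WT 2) and the growth factor gene Vegfa by 0.76 (0.34 without WT 2). Other tested probe sets were at 0.48, 0.13 and -0.16 for Nr3c1, 0.71 for P4ha1 and 0.18 for Vegfa. Genes of B-1 cells, which need DEC2 in the mouse, had 4 higher and 3 lower of 7 tested, with a median of 0.16 and 0 called. Cd9 differed by 1.07 (0.60 without WT 2) and Mzb1 by 0.49 (0.27 without WT 2). At an unadjusted p under 0.05 in limma, 1 of the other E-box binding factors was higher, and 0 genes of the activator, HES and HEY, partner, hypoxia and B-1 lists reached it.

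Markers of cell types also differed between arrays, and how they went with Bhlhe40 was not tested. In bulk samples fewer cells of a type and less RNA per cell cannot be told apart. The cultures carried B lineage markers, with none of 12 such genes below the array median on all arrays. Their summed signal, taken as deposited like the sums below, was 127460, 131758 and 83362 in DKO 1 to 3. In WT 1 to 3 it was 86622, 152840 and 90863. Of these 12, 8 were higher and 4 lower in DKO, with Blnk, a B cell adaptor, at 1.18 (0.66 without WT 2). Dntt encodes the terminal transferase that adds nucleotides at V(D)J joints, and it read 10162, 10083 and 1079 in DKO 1 to 3, against 1314, 3466 and 495 in WT 1 to 3. As with Bhlhe40, DKO 1 and DKO 2 were high and DKO 3 lay below the highest WT array. That array was WT 2 for Dntt and WT 1 for Bhlhe40, which was lowest on WT 2.

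All 14 tested granulocyte markers had a lower mean signal in DKO. The summed signal of all 15 with a probe set was 722 on DKO 1, 683 on DKO 2 and 28111 on DKO 3. On WT 1 to 3 it was 76558.5, 179724 and 19497. The 2 arrays with the highest Bhlhe40 signal thus had the lowest sums. Among the WT arrays WT 3 had the lowest sum, while WT 1 had the highest Bhlhe40 signal. S100a8 differed by -4.84 and S100a9 by -4.97. Of 17 macrophage and monocyte markers, 13 were lower (16 without WT 2), and only Cd163 was below the array median on all arrays. The 19 with a probe set had a summed signal of 29012, 21679 and 37277 in DKO 1 to 3. In WT 1 to 3 the sum was 64410, 114740 and 26526. Csf1r differed by -2.04 (-1.41 without WT 2) and Tyrobp by -1.96. Other tested probe sets of Csf1r were at -1.67 and -0.90.

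Most tested markers of other lymphoid and rare cells had a higher mean in DKO, as had 64.9% of all tested probe sets (47.4% without WT 2). Of 11 T, NK and innate lymphoid markers, 8 were higher (7 without WT 2), and Cd4 and Gata3 were below the array median on all arrays. The 15 with a probe set had a summed signal of 2425, 3281 and 2919 in DKO 1 to 3. In WT 1 to 3 it was 2362, 4600 and 3490. Cd3d differed by 2.34 and Klrd1 by 1.65. Of 7 mast cell and basophil markers, 6 were higher with and without WT 2. Those with a probe set, 13 in number, had a summed signal of 2585, 2343 and 627 in DKO 1 to 3. In WT 1 to 3 it was 1826, 2109 and 686. Tpsab1, Tpsb2, Mcpt4 and Il4 were below the array median on all arrays, Mcpt8 differed by 1.51 and Il6ra by -1.97. Il6ra read 30.4, 39.4 and 213 in DKO 1 to 3, against 337, 749 and 234 in WT 1 to 3. Another tested probe set of Il6ra was at 0.06. Of 9 dendritic cell markers, 7 were higher (5 without WT 2). For the 11 with a probe set the summed signal was 11949, 12831 and 8059 in DKO 1 to 3. In WT 1 to 3 it was 7431, 3272 and 7761. Xcr1 was below the array median on all arrays, Itgax differed by 1.06 and Batf3 by 1.09. The median difference of the dendritic cell markers was 0.76, and 0.18 without WT 2. At an unadjusted p under 0.05 in limma, 6 granulocyte and 2 macrophage markers were lower. Higher were 2 B lineage, 4 lymphoid and 2 dendritic cell markers. Of the mast cell and basophil list, Mcpt8 was higher and Il6ra lower. The shares of all tested probe sets were 1.81% higher and 1.31% lower. No marker of these lists passed an adjusted p of 0.05 in limma, no marker was at 0, and the part of these cells in the Bhlhe40, Bhlhe41 and Ciart values was not tested.

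The genes most like each of the 3 across arrays were taken from 12627 genes with a tested probe set. Likeness was the lower of Pearson's r over 6 arrays and over the 5 without WT 2, and arrays of 1 genotype share whatever sets that genotype apart. For Bhlhe40 the closest were Cdc42bpg, Casd1, Acss2, Shmt2 and Abcg2, with a likeness of 0.995 to 0.997. Their own log2 differences were smaller than that of Bhlhe40, from 0.27 for Shmt2 to 1.28 for Abcg2. Nr1d1 ranked 49 with a likeness of 0.972, and Per2 ranked 1771 with 0.657.

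For Ciart the closest were Rida, 1700025G04Rik, Map2k6, Tnfrsf14 and Tctex1d2, with a likeness of 0.981 to 0.993. Among clock genes Nr1d2 ranked 17 with a likeness of 0.968 and Per3 ranked 71 with 0.929. Dbp correlated with Ciart at 0.994 over the 5 arrays without WT 2 and at 0.726 over all 6. Ciart ranked 365 for Bhlhe40 with a likeness of 0.906. For Bhlhe41 the closest were Car5b, 1700026J12Rik, 6530409C15Rik, Spink4 and Fam135b, at 0.955 to 0.976. Bhlhe41 ran against the other 2, with r over the 6 arrays of -0.80 with Bhlhe40 and -0.80 with Ciart. Over the 5 without WT 2 these were -0.60 and -0.61. Among the 12627 genes Bhlhe41 ranked 9776 in likeness to Bhlhe40 and 11479 to Ciart, so many genes had a lower likeness still.

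Bhlhe40 and Bhlhe41 both lie on chromosome 6 and Ciart on chromosome 3 of build GRCm38.p6, while Cry1 lies on chromosome 10 and Cry2 on chromosome 2. None of the 3 genes is thus on a chromosome of a deleted gene. Whether sequence variants lie under their probes was not tested.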

How the data were processed

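Total RNA of 6 samples was measured on 6 oligonucleotide arrays after biotin labelling. The authors deposited a linear signal intensity for each probe set, computed with MAS5 per the submitters' processing notes, where its version is missing. Trimmed of 2% of values at either end, each array had a mean of 500.

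Each array was put on the scale log2(intensity + 16), which shrinks differences of dim genes, and its median was subtracted. Probe sets with a mean above percentile 40, 27022 of 45037, entered limma (version 3.58.1, R 4.3.3), with genotype as the single term and a variance trend, two-sided. P-values were adjusted over all of them by the Benjamini-Hochberg method. A gene was represented by its probe set with the highest mean signal, and symbols were updated through the gene table of GRCm38.p6. Pairs of genes were compared by exact permutation tests over 20 splits. Genes of a list without a named probe set were not analysed here. Named genes were all tested E-box clock genes and activators and, of each other list, the called ones or else the 2 with the smallest p. The 5 genes most like each of Bhlhe40, Bhlhe41 and Ciart were named too.

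The 3 genes and the lists were chosen with earlier results of these data known. Tables were made with pandas 2.3.3, scipy 1.17.1 and numpy 2.4.6 in Python 3.11.15, and plots with matplotlib 3.10.9. The alternatives were other scalings, pseudocounts, filters, variance models and weights, the replicate number as a block, and each array left out. Pseudocounts combined with leaving out WT 2 were added after seeing the data.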

Additional observations from a re-analysis of the deposited data

How the results depend on the processing

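Bhlhe40, Bhlhe41 and Ciart kept their direction in every alternative that tested them. Of their adjusted p values only that of Bhlhe40 with array weights (2.49, limma adjusted p = 0.0347) passed. The other filters and variance models and the replicate block leave a gene's estimate unchanged by construction, so they do not test its direction. Bhlhe41 fell under the filter at percentile 60 and was not tested there. Their ranges with 1 array left out were 2.05 to 3.74, -0.68 to -0.36 and 0.59 to 0.81. The weights were estimated gene by gene, since limma's default estimation stopped before converging. The number of probe sets called, 2 as reported, was 0 with quantile normalization, no centring, centring over the tested probe sets and a pseudocount of 1, and 1 with a filter at percentile 60 and with robust variances. It was 922 with array weights and 0 to 7 with 1 array left out. Without WT 2 it was 5 with quantile normalization, no centring or a pseudocount of 64, and 7 with a pseudocount of 1.

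Deviations of same-numbered DKO and WT arrays correlated at -0.15, -0.0019 and 0.33 for numbers 1 to 3. Number 3 was the highest of the 9 cross pairs, but DKO 1 correlated best with WT 2 (0.32) and not every number was over 0.1, so the numbers are not taken as pairs. With the replicate number as a block 0 probe sets were called, and Bhlhe40 (2.94), Bhlhe41 (-0.54) and Ciart (0.72) had a limma adjusted p of 0.804.

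Some other clock genes changed sign, for which the cause was not tested. With quantile normalization Wee1 was at -0.088, Usp2 at -0.35 and Nampt at -0.080. With array weights Wee1 was at -0.38, Nampt at -0.48 and Clock at -0.039. Usp2 was at -0.25 with no centring, -0.23 with centring over the tested probe sets and -0.012 with a pseudocount of 64. With 1 array left out, Wee1 ran from -0.27 to 0.79, Usp2 from -0.044 to 0.17, Nampt from -0.52 to 0.89 and Clock from -0.083 to 1.84. Without WT 2, quantile normalization gave -0.24 for Wee1, -0.51 for Nampt and -0.081 for Clock, and no centring gave -0.25, -0.51 and -0.065. Of the other named genes' alternatives, 693 stayed on the same side of the threshold and 21, all with array weights, passed it.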

Other observations

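Sirt1, an NAD-dependent deacetylase that acts on clock proteins, was named from the list of repressor partners after its values were seen. It read 921, 869 and 948 in DKO 1 to 3, against 2482, 979 and 2271 in WT 1 to 3. As deposited, the 3 DKO arrays were close to each other and below WT 1 and WT 3, and WT 2 lay beside them. On the centred log2 scale WT 2 was the lowest array, at 2.92, against 3.66 to 4.01 in DKO. With all 6 arrays its log2 difference was -0.63 (SE 0.68, limma adjusted p = 0.822), and without WT 2 it was -1.38 (SE 0.22, limma adjusted p = 0.259). Over all alternatives the limma adjusted p of Sirt1 ran from 0.026 with array weights to 0.971 without DKO 2.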
